A study of Mus musculus with 14 samples.

Results

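The genes described here carry fatty acids into a cell's metabolism and burn them. They are 10 of the 32830 genes in the deposited table, taken by symbol: the fatty acid binding proteins Fabp5 and Fabp7, the acyl-CoA synthetases Acsbg1 and Acsl6, the carnitine palmitoyltransferases Cpt1a and Cpt2, the acyl-CoA dehydrogenases Acadl and Acadm, and Hadha and Hadhb, which encode the subunits of the mitochondrial trifunctional protein. The study sequenced RNA from the mouse cerebral cortex, dissected into upper and deep layers, in 14 libraries. Each layer gave a sorted astrocyte fraction with 3 libraries, a sorted fraction of the remaining cells (non-astrocytes) with 2, and bulk tissue of the whole layer with 2.

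The mice were of the SW strain. The astrocytes came from animals 14 days old that carried the Aldh1l1-GFP reporter, and no other age is given for the remaining fractions. In this reporter, regulatory sequence of an astrocyte enzyme gene drives green fluorescent protein. GFP-positive cells made the astrocyte fraction and GFP-negative cells the non-astrocyte fraction, both after papain digestion and after dead cells had been gated out with DAPI. One label field calls the upper layer astrocyte and non-astrocyte libraries bulk tissue, against their titles. The titles were followed, and the marker levels given below were measured under them. The labels number the replicates but do not say whether each came from a separate animal, so p-values rest on the scatter among these libraries alone, part of which may be technical.

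Long-chain fatty acids are poorly soluble in water. Inside a cell they travel bound to small carrier proteins, and acyl-CoA synthetases activate them by joining them to coenzyme A. Carnitine palmitoyltransferases then serve the carnitine shuttle, which brings the acyl group across the inner mitochondrial membrane. There beta oxidation shortens it by an acetyl unit in each round. In brain, astrocytes are regarded as the main site of fatty acid oxidation, and Fabp7 and Acsbg1 are commonly used as astrocyte genes.

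Depth was between 18226457 and 30316765 reads in genes per library, and all 10 genes passed the filter on low values. Values are normalised read counts, that is, reads divided by 1 size factor per library. The summed level of 8 astrocyte markers ran from 1008107 to 1493061 in the 6 astrocyte libraries, from 26277 to 34209 in the 4 non-astrocyte libraries and from 200428 to 239614 in the 4 bulk libraries. The non-astrocyte fraction held few neuronal transcripts: 7 neuron markers summed to 3607 to 8676 there, against 106766 to 139741 in bulk tissue and 287 to 415 in astrocytes. It held more than bulk tissue of the markers of microglia (6 genes, 133503 to 195760, against 6482 to 7691), mural cells (5 genes, 204184 to 279772, against 7607 to 9945), endothelium (6 genes, 29621 to 41436, against 3329.5 to 4423) and oligodendrocyte precursors (5 genes, 25550 to 57277, against 4510 to 7821). The fraction named non-astrocytes was therefore low in neuronal RNA and high in RNA of these other cells. The part of these cells in the results below was not tested.

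Positions are those of GENCODE M21 on the GRCm38 mouse genome. Hadha (chr5:30118304-30155162, minus strand) and Hadhb (chr5:30155248-30184593, plus strand) stand head to head with 85 bases between their gene models. Fabp5 (chr3:10012548-10016607, plus) and Acadm (chr3:153922357-153944632, minus) share a chromosome but not a neighbourhood. The others are Fabp7 (chr10:57784881-57788450, plus), Acsbg1 (chr9:54604877-54661870, minus), Acsl6 (chr11:54303798-54364756, plus), Cpt1a (chr19:3322334-3385733, plus), Cpt2 (chr4:107903981-107923610, minus) and Acadl (chr1:66830839-66863277, minus). Reads were 50 bases long, so windows of 50 bases of each main transcript were searched in the transcripts of every other gene. Hadhb shared 61.5% of its windows with the processed pseudogene Gm13910, and Fabp5 shared 19.6% with the processed pseudogene Gm6166. For Acadm the shared windows made up 4.10%, for Acsl6 2.95% and for Hadha 0.66%, and Fabp7, Acsbg1, Cpt1a, Cpt2 and Acadl had none. Counts of Hadhb and Fabp5 are uncertain to that extent, because reads from these stretches could be dropped or counted elsewhere.

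The sequences before the start sites of Fabp7, Acsbg1 and Acsl6 are shown because these genes were the most skewed towards astrocytes, together with the stretch between Hadha and Hadhb, which both genes share. They are RefSeq sequences on GRCm38.p6, limited to bases outside every annotated exon and written 5′ to 3′ on the gene's strand. Capitals mark AGGTCA, a core motif of many nuclear receptors, and CCAAT, the CCAAT box, on either strand, and in Acsl6 also TNAAGGTCA, an extended form of that motif, which overlaps it. On the other strand AGGTCA reads TGACCT. For Acsl6 only the first of 3 stretches is shown. The second (chr11:54304110-54304201) held none of these motifs, and the third (chr11:54314653-54314895) held 1 CCAAT box and no AGGTCA.
Fabp7 chr10:57784673-57784880, plus strand: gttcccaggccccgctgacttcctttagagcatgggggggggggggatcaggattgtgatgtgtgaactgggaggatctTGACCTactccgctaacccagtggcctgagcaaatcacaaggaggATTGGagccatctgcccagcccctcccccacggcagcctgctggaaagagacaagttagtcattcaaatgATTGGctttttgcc
Acsbg1 chr9:54661886-54662135, minus strand: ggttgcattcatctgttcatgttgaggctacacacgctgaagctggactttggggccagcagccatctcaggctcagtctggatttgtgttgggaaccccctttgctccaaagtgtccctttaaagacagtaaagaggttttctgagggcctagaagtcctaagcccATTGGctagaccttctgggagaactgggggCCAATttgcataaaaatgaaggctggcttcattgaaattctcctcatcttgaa
Acsl6 chr11:54303574-54303797, plus strand: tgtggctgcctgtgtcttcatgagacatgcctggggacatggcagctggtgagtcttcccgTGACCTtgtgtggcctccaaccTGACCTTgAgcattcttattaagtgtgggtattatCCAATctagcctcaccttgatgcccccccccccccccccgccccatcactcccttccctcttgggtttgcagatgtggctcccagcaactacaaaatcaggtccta
Hadha to Hadhb chr5:30155163-30155247, plus strand: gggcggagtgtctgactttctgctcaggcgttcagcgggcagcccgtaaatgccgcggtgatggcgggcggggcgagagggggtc
Windows of 300 bases, from 250 before to 50 after a start site, were available for 9 of the 10 genes, Acsl6 having 3. A CCAAT box was present in the windows of Fabp7, Acsbg1, Cpt1a and in 2 of the 3 windows of Acsl6, and in 37.4% of all 32851 RefSeq mouse windows. The letters AGGTCA occurred in the windows of Fabp7, Cpt1a, Acadm and the first window of Acsl6, and in 16.3% of all windows. Observed over expected CpG was 0.28 for Fabp7 and 0.12 for Acsbg1, and 0.20, 0.84 and 0.04 for the 3 windows of Acsl6, beside a median of 0.38 over all windows. It was higher in the windows of Cpt1a (0.76), Cpt2 (0.70), Acadl (0.93), Hadha (0.78) and Hadhb (0.88), with Acadm at 0.46. At or above 0.60 lay 35.8% of all windows. These are descriptions of sequence and no binding was measured.

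All 10 genes were higher in astrocytes than in non-astrocytes, and the carriers and synthetases far more so than the oxidation enzymes. Acsbg1 and Acsl6 differed 41.8-fold and 37.4-fold, Fabp7 and Fabp5 14.1-fold and 13.2-fold, and the 6 mitochondrial genes between 1.25-fold (Hadha) and 3.21-fold (Acadl). At an adjusted p below 0.05 (limma, Benjamini-Hochberg over all 22575 genes tested) 10 of 10 were called higher. Among all genes tested 66.3% were called, and 29.6% were called higher. In 9 of the 10, every astrocyte library lay above every non-astrocyte library, as it did for 21.7% of all genes, and Hadha was the exception. The median log2 difference over the 10 genes was 1.58, beside -0.08 over all genes. The 10 genes were chosen with earlier results of these data known, so these and later contrasts with all genes are descriptions. The plot of values by library shows all 3 fractions apart for Fabp5, Acsbg1, Acsl6, Cpt1a and Acadm, and some overlap between fractions for the others.

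**Figure D1:**
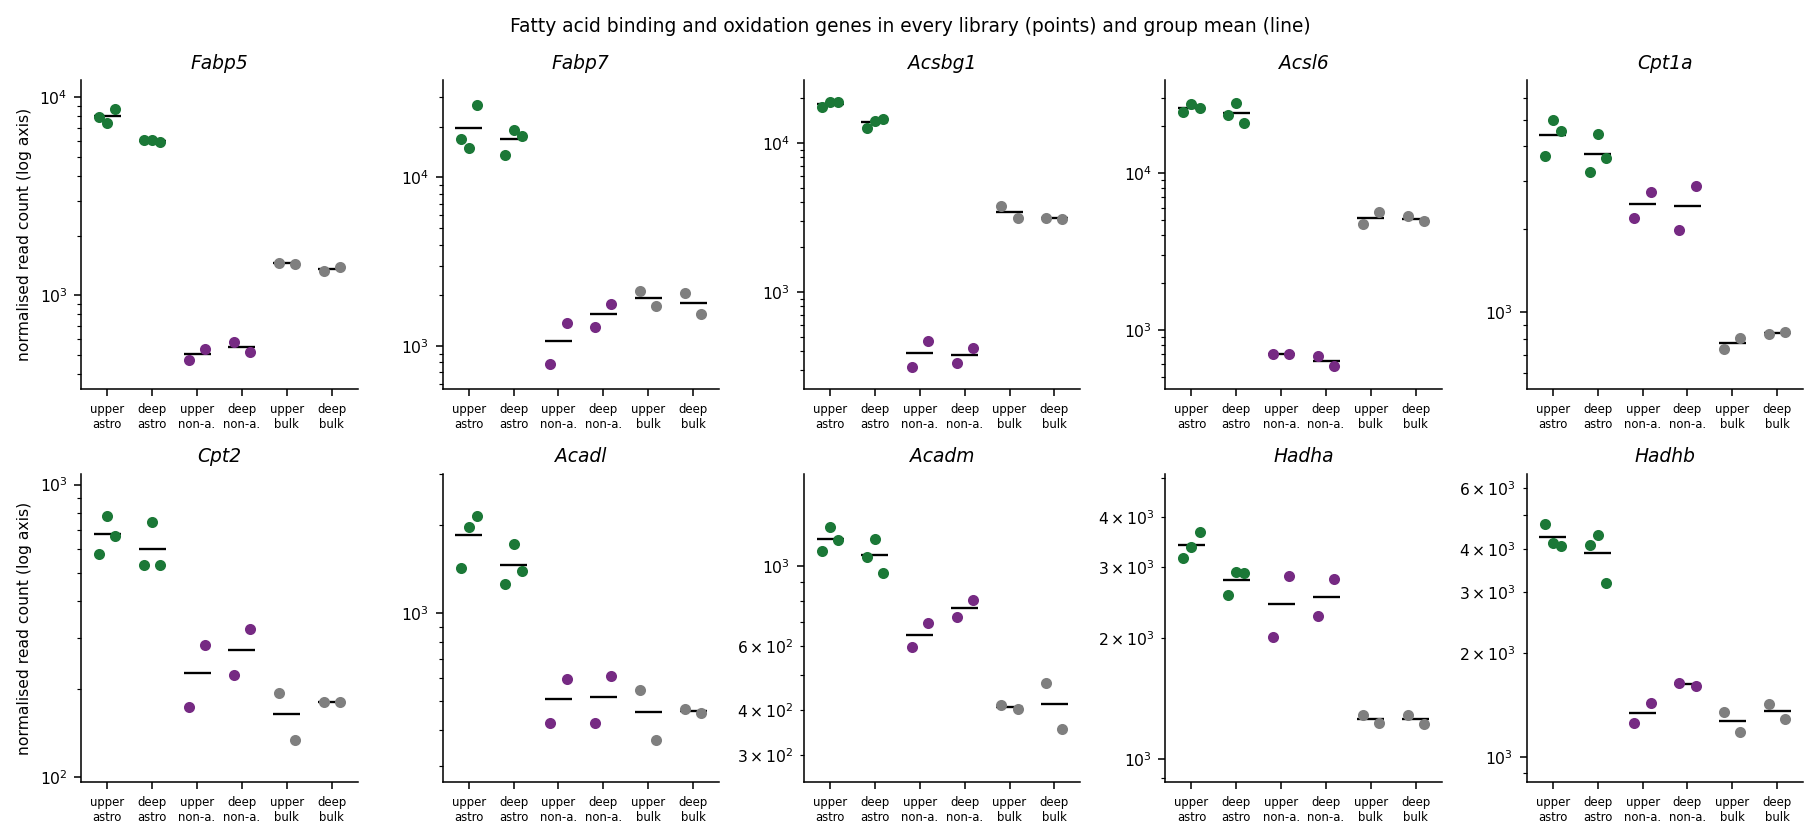
Normalised read count of each gene on a log axis (each panel with its own range) in upper and deep layer astrocytes, non-astrocytes and bulk tissue, with 1 point per library and a line at the group mean. Astrocyte libraries stand above all others for every gene except Hadha, whose non-astrocyte libraries reach 2852, above the lowest astrocyte library at 2566.

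Fabp7 encodes the brain-type fatty acid binding protein of astrocytes and radial glia. Its counts were 16949.9, 14835 and 26883 in the upper layer astrocyte libraries and 13575, 19127 and 17683 in the deep layer ones. They were 779 and 1369 in upper and 1300.4 and 1782 in deep layer non-astrocytes, and 2126, 1738, 2051 and 1545 in bulk tissue. The non-astrocyte and bulk libraries overlapped and the astrocyte libraries lay far above both. Fabp7 was also the gene with the widest spread among astrocyte libraries, with a coefficient of variation of 25.9%, and upper layer replicate 3 was its highest library. The log2 difference was 3.82 ± 0.20 (SE, adjusted p = 1.58e-10, limma) against non-astrocytes and 3.26 ± 0.20 (adjusted p = 9.7e-10) against bulk tissue. Non-astrocytes were 1.47-fold below bulk tissue (log2 -0.56 ± 0.22, limma adjusted p = 0.0347). That call was lost when values were scaled to equal totals (-0.19, adjusted p = 0.381) and without replicate 1 of any of the non-astrocyte or bulk groups. Its adjusted p was then 0.13 (deep layer non-astrocytes), 0.174 (upper layer non-astrocytes), 0.13 (deep layer bulk tissue) and 0.113 (upper layer bulk tissue).

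Fabp5 encodes a carrier that is also made in skin and endothelium. The upper layer astrocyte libraries held 7956, 7381 and 8691 and the deep layer ones 6106, 6047 and 5931. Non-astrocytes held 469.9, 537, 577 and 514 and bulk tissue 1453, 1439, 1319 and 1381. Here the 3 fractions did not overlap, and bulk tissue lay between the others. The log2 difference of astrocytes was 3.73 ± 0.10 (SE, limma adjusted p = 2.18e-13) against non-astrocytes and 2.31 ± 0.10 (adjusted p = 1.95e-11) against bulk tissue. Non-astrocytes were 2.67-fold below bulk tissue (log2 -1.42 ± 0.11, limma adjusted p = 2.53e-08). The pseudogene Gm6166, which shares sequence with Fabp5, had means of 2758 in astrocytes, 202 in non-astrocytes and 637 in bulk tissue.

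Acsbg1, the bubblegum-type synthetase that activates long and very long chain fatty acids, and Acsl6, a long-chain synthetase linked to polyunsaturated fatty acids in brain, had the steepest differences. Acsbg1 measured 17341, 18753 and 18775 in upper layer and 12663, 14009.8 and 14549 in deep layer astrocytes, and 312, 470.3, 331 and 422 in non-astrocytes. In bulk tissue it measured 3789.6, 3126, 3151 and 3074. Acsl6 reached 24414, 27662 and 25864 in upper layer and 23543, 27875 and 20849 in deep layer astrocytes. It was at 705, 699, 679 and 586 in non-astrocytes and at 4752, 5624, 5275 and 4935 in bulk tissue. For both genes the order of fractions was astrocytes, bulk tissue, non-astrocytes, with no library out of place. Log2 differences against non-astrocytes were 5.38 ± 0.13 for Acsbg1 (SE, limma adjusted p = 1.18e-13) and 5.22 ± 0.11 for Acsl6 (adjusted p = 4.77e-14). Against bulk tissue they were 2.27 ± 0.13 and 2.28 ± 0.11. Non-astrocytes lay below bulk tissue by 8.63-fold for Acsbg1 and 7.71-fold for Acsl6 (limma adjusted p = 9.4e-11 and 4.47e-11).

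Cpt1a encodes the carnitine palmitoyltransferase of the outer mitochondrial membrane, the rate-limiting and malonyl-CoA-inhibited entry step, and Cpt2 its partner on the inner membrane. Cpt1a stood at 3683, 4960.2 and 4538 in upper layer and 3215, 4444 and 3618 in deep layer astrocytes. It stood at 2193, 2729, 1989 and 2864 in non-astrocytes and at only 735, 806, 828 and 843 in bulk tissue. So the order changed: both sorted fractions lay above bulk tissue, by 5.02-fold in astrocytes (limma adjusted p = 8.78e-10) and 3.01-fold in non-astrocytes (adjusted p = 3.07e-07), and astrocytes exceeded non-astrocytes 1.67-fold (adjusted p = 0.000251). Cpt2 held 581, 778 and 667 in upper layer and 531, 742 and 533 in deep layer astrocytes. It held 174, 282, 223 and 321 in non-astrocytes and 194, 134, 181 and 181 in bulk tissue, so the last 2 fractions overlapped. Its astrocyte level exceeded non-astrocytes 2.59-fold (limma adjusted p = 8.88e-06) and bulk tissue 3.68-fold (adjusted p = 2.91e-07). The step from bulk tissue up to non-astrocytes was 1.42-fold (log2 0.51, 95% confidence interval 0.08 to 0.94, limma adjusted p = 0.0404). That call was lost without replicate 2 of deep layer non-astrocytes (adjusted p = 0.161), upper layer non-astrocytes (0.179) or upper layer bulk tissue (0.166), without either deep layer bulk library (0.0836 and 0.0834) and without upper layer astrocyte replicate 3 (0.0522).

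Acadl and Acadm encode the long-chain and medium-chain acyl-CoA dehydrogenases of the first step of each oxidation round. Acadl measured 1434, 1974 and 2148 in upper layer and 1256, 1725 and 1397 in deep layer astrocytes. Its counts were 421, 599, 422 and 611 in non-astrocytes and 548, 369.6, 472 and 455 in bulk tissue. The last 2 fractions overlapped, and their log2 difference was 0.14 (95% confidence interval -0.26 to 0.55, limma adjusted p = 0.531). Acadm measured 1096, 1281 and 1180.2 in upper layer and 1057, 1187 and 956 in deep layer astrocytes, 596, 696, 723 and 803 in non-astrocytes, and 412, 403, 476 and 354 in bulk tissue. Its 3 fractions did not overlap. Astrocytes exceeded non-astrocytes 3.21-fold for Acadl and 1.6-fold for Acadm (limma adjusted p = 4.39e-07 and 0.000171), and bulk tissue 3.55-fold and 2.74-fold (adjusted p = 1.79e-07 and 5.12e-08). Non-astrocytes exceeded bulk tissue 1.71-fold for Acadm (adjusted p = 0.000136).

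Hadha, the subunit of the trifunctional protein that carries the hydratase and the long-chain dehydrogenase activity, differed least between the sorted fractions. Its counts were 3175, 3367 and 3667 in upper layer and 2566, 2918 and 2904 in deep layer astrocytes, and 2009, 2852, 2266 and 2807 in non-astrocytes. Bulk tissue held 1289, 1231, 1289 and 1225. The 2 sorted fractions overlapped and both lay above bulk tissue. The log2 difference of astrocytes against non-astrocytes was 0.33 ± 0.12 (SE, limma adjusted p = 0.0264). It was 0.14 (adjusted p = 0.238) with values scaled to equal totals, and the call was also lost without upper layer astrocyte replicate 3 (0.0577), without deep layer non-astrocyte replicate 1 (0.122) or without upper layer non-astrocyte replicate 1 (0.144). Against bulk tissue the differences were 1.29 ± 0.12 in astrocytes (limma adjusted p = 1.51e-07) and 0.97 ± 0.13 in non-astrocytes (adjusted p = 1.26e-05).

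Hadhb, the thiolase subunit, is needed in the same protein complex and starts 85 bases from Hadha. It held 4710.1, 4149 and 4085 in upper layer and 4102, 4399 and 3192 in deep layer astrocytes, 1255, 1431, 1638 and 1609.6 in non-astrocytes and 1355, 1184, 1423 and 1291 in bulk tissue. Only the astrocyte libraries stood apart. Astrocytes exceeded non-astrocytes 2.76-fold and bulk tissue 3.11-fold (limma adjusted p = 2.24e-08 and 6.25e-09). The log2 difference of non-astrocytes against bulk tissue was 0.17 (95% confidence interval -0.10 to 0.44, limma adjusted p = 0.26). The pseudogene Gm13910 was counted at 1879, 563 and 525 on average in astrocytes, non-astrocytes and bulk tissue.

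Against bulk tissue, all 10 genes were again higher in astrocytes, from 2.45-fold for Hadha to 9.58-fold for Fabp7. All 10 were called higher (limma, Benjamini-Hochberg), beside 64.8% of all genes called and 28.8% called higher, and in all 10 the libraries did not overlap, which held for 23.2% of all genes. The median log2 difference was 2.08, against -0.10 over all genes. In bulk tissue a lower count of these genes can come, among other things, from fewer astrocytes among the cells or from less RNA per astrocyte. These 2 cannot be told apart. Cpt1a, Acadm and Hadha were lower in bulk tissue than in non-astrocytes as well. Bulk tissue also held far more of the neuron markers than either sorted fraction, with the sums given above, and the part of this was not tested. The 3 comparisons of fractions share their libraries, so they are given side by side and not as separate evidence.

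Non-astrocytes against bulk tissue went both ways. Acsbg1, Acsl6, Fabp5 and Fabp7 were lower in non-astrocytes, while Cpt1a, Hadha, Acadm and Cpt2 were higher and Acadl and Hadhb were not called. That made 8 of 10 called, 4 in each direction (limma, Benjamini-Hochberg), beside 61.6% of all genes, 30.5% higher and 31.1% lower, so these shares are near the background. Every non-astrocyte library lay above every bulk library for Cpt1a, Acadm and Hadha (29% of all genes did so) and below for Fabp5, Acsbg1 and Acsl6 (29.3%). Microglial, mural cell, endothelial and meningeal fibroblast markers were all called higher here, as were 4 of 5 oligodendrocyte precursor markers. Astrocyte and neuron markers were all called lower. Of 6 oligodendrocyte markers 2 were called higher and 2 lower, and of 7 radial glia and progenitor markers 4 and 2. The sums of most of these lists are given above, and the part of these cells was not tested. Of 9 dissociation stress genes 7 were called higher and 1 lower (median log2 2.87), with sums of 29751 to 52351 in non-astrocytes and 19195 to 31999 in bulk tissue, and their part was not tested. Of these 8 calls, Cpt2 and Fabp7 depended on the settings. Scaled to equal totals, 9 of 10 were called, 6 higher and 3 lower, with Acadl (log2 0.52, adjusted p = 0.00818) and Hadhb (0.54, adjusted p = 0.00211) added and Fabp7 lost. That scaling moved the median of all genes from -0.04 to 0.32.

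**Figure D2:**
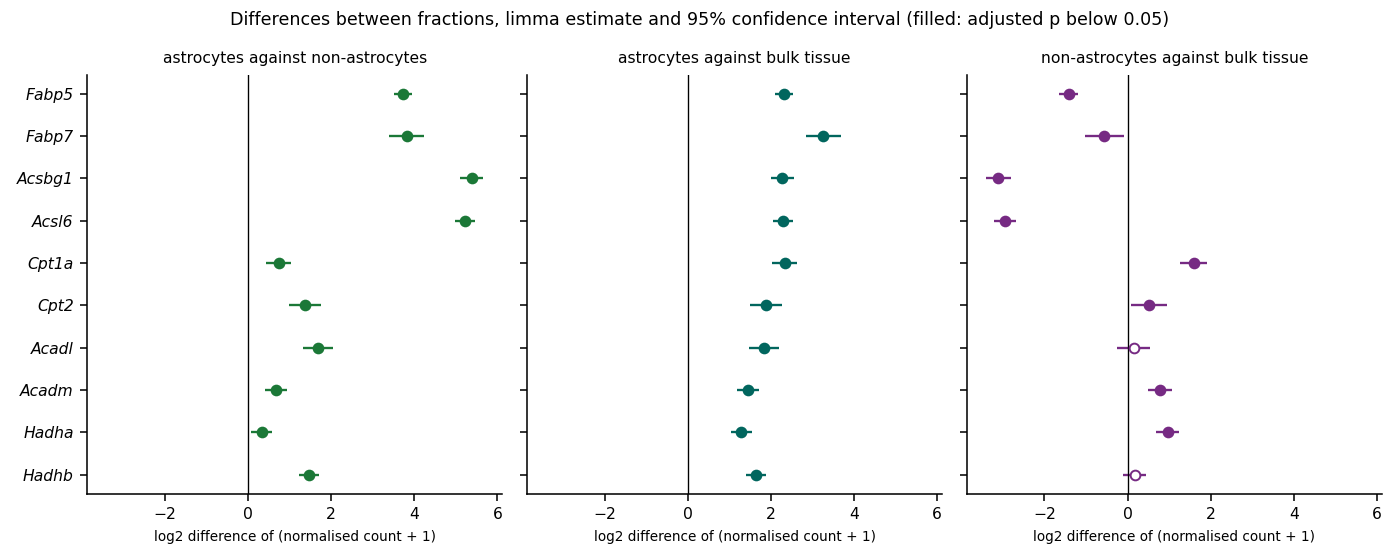
Log2 difference of each gene between fractions with its 95% confidence interval, filled where the limma adjusted p is below 0.05. All 10 genes lie to the right of 0 in both comparisons of astrocytes, from 0.33 to 5.38 against non-astrocytes, whereas in non-astrocytes against bulk tissue they spread from -3.11 for Acsbg1 to 1.59 for Cpt1a.

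Levels of different genes were compared per kilobase of the main annotated transcript. In astrocytes Fabp7 was the highest at 22606 ± 5855 normalised reads per kilobase (SD, n = 6), followed by Acsl6 at 9651 ± 1031, Fabp5 at 7111 ± 1179 and Acsbg1 at 5561 ± 909. Fabp7 did not overlap the others. The ranges of Acsl6 and Fabp5 overlapped, as did those of Fabp5 and Acsbg1, although Acsl6 exceeded Fabp5 and Fabp5 exceeded Acsbg1 within each of the 6 astrocyte libraries. The mitochondrial genes followed with Hadhb at 2005 ± 248, Cpt1a at 944 ± 155, Acadl at 864 ± 184, Hadha at 772 ± 96.8, Acadm at 550.2 ± 55.8 and Cpt2 at 269 ± 45.0. Among these only Cpt1a, Acadl and Hadha overlapped. In non-astrocytes the order was another one: Fabp7 (1626 ± 512, n = 4) was followed by Hadhb (724 ± 86.9), Hadha (618 ± 103), Cpt1a (566 ± 97.1) and Fabp5 (531 ± 45.3), and Acsl6 (257 ± 21.4) and Acsbg1 (133 ± 26.1) stood last but for Cpt2 (105 ± 27.3), after Acadm (344 ± 41.8) and Acadl (268 ± 55.3). Neighbours in that order overlapped, except that Fabp7 stood above Hadhb, Fabp5 above Acadm and Acsl6 above Acsbg1 in every library. In bulk tissue it ran Fabp7 (2320 ± 338), Acsl6 (1984 ± 149), Fabp5 (1417 ± 62.0), Acsbg1 (1141 ± 117) and Hadhb (641 ± 49.6), then Hadha (313 ± 8.79), Acadl (241 ± 38.3), Acadm (201 ± 24.5), Cpt1a (186 ± 11.2) and Cpt2 (72.7 ± 11.03), where Fabp7 overlapped Acsl6 and the last 3 before Cpt2 overlapped. With all annotated exons of a gene as its length, Acsbg1 (4444) stood above Acsl6 (2525) and Fabp5 (1968) in astrocytes, and Acadl (826) above Hadhb (623). In non-astrocytes Cpt1a (320), Hadha (284) and Acadl (256) then stood above Hadhb (225), and Acsbg1 (106) above Acsl6 (67.3). The orders given above, also those without overlap, therefore depend on the length used. Fabp7 was the highest in every fraction with either length.

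Genes next to each other in the pathway were also compared as ratios within each library, in which the size factor cancels. These pairs were chosen after the values were seen, so the p-values of the ratios describe these data and are no independent support. The permutation tests also took every library as separate. Same-numbered upper and deep layer libraries of a fraction varied together, so these p-values may be too small. The 2 subunits of the trifunctional protein did not keep 1 ratio: Hadhb over Hadha was 1.34 ± 0.22 in astrocytes (SD, n = 6, range 1.10 to 1.599), 0.61 ± 0.09 in non-astrocytes (n = 4, 0.50 to 0.72) and 1.04 ± 0.06 in bulk tissue (n = 4, 0.96 to 1.10). The difference between astrocytes and non-astrocytes was 2.21-fold with no overlap, and an exact 2-sided permutation test gave p = 0.00952, the smallest that 6 against 4 libraries allow (0.0357 after Benjamini-Hochberg over 15 tests). Most of Hadhb's windows are shared with Gm13910, so the level of this ratio is uncertain. Acadl over Acadm had the same order of fractions, at 1.46 ± 0.22, 0.73 ± 0.12 and 1.13 ± 0.21, with no overlap between the sorted fractions (exact permutation p = 0.00952, adjusted 0.0357).

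Cpt1a over Cpt2 went the other way, with 6.39 ± 0.35 in astrocytes, 10.04 ± 1.77 in non-astrocytes and 4.76 ± 0.92 in bulk tissue (exact permutation p = 0.00952 between the sorted fractions, adjusted 0.0357). Its spread among the 6 astrocyte libraries was narrow, from 5.99 to 6.81. Fabp7 over Fabp5 overlapped between the sorted fractions (2.60 ± 0.53 and 2.48 ± 0.75, exact permutation p = 0.686) and lower in bulk tissue at 1.34 ± 0.21, below every library of both (adjusted p = 0.0357 against astrocytes and 0.0429 against non-astrocytes, exact permutation tests). Acsl6 over Acsbg1 overlapped in all 3 fractions, at 1.59 ± 0.26, 1.80 ± 0.43 and 1.58 ± 0.23, with adjusted exact permutation p from 0.393 to 0.981.

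**Figure D3:**
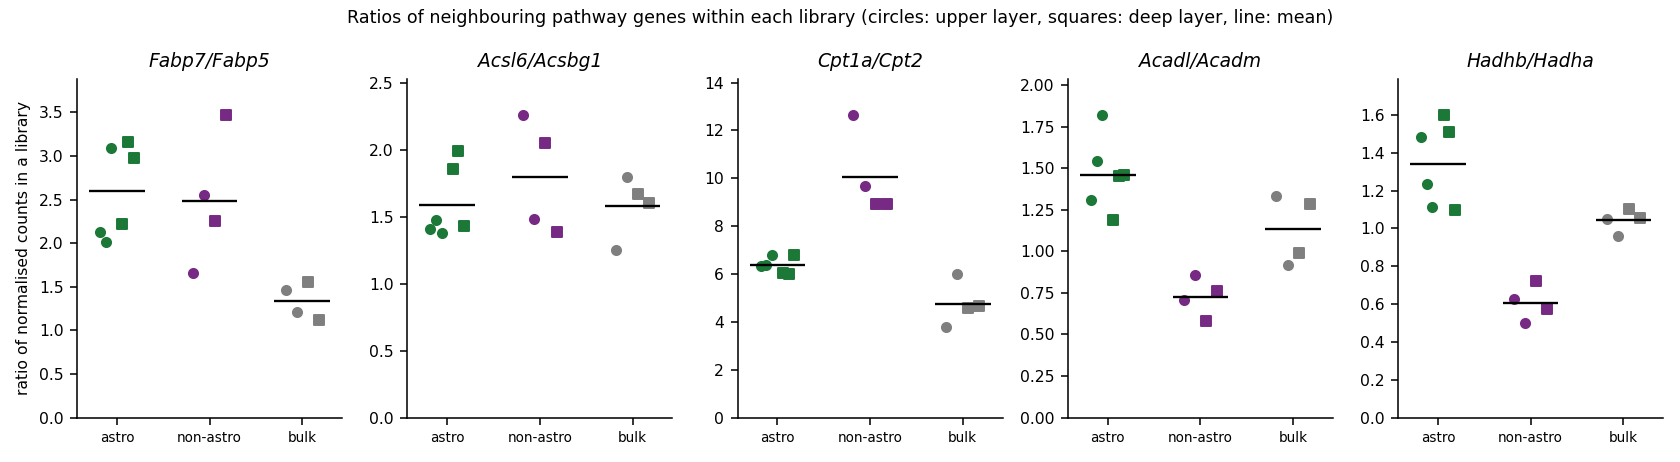
Ratio of the normalised counts of 2 genes within each library, by fraction, with circles for upper and squares for deep layer libraries and a line at the mean. Hadhb/Hadha and Acadl/Acadm are lowest and Cpt1a/Cpt2 is highest in non-astrocytes, each without overlap with astrocytes, while Acsl6/Acsbg1 overlaps in all 3 fractions.

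The rest of the pathway was described from 9 gene lists, which include these 10 genes. Mitochondrial beta oxidation genes were mostly higher in astrocytes: 16 of 19 were called higher and 1 lower against non-astrocytes (median log2 1.36), and 18 of 19 higher against bulk tissue (median 1.45). The background was 29.6% and 28.8% called higher. Examples were Decr1, the dienoyl-CoA reductase that handles unsaturated chains (log2 1.89, limma adjusted p = 1.08e-08), and Eci1, an enoyl-CoA isomerase (1.81, adjusted p = 6.99e-09). Acads, the short-chain dehydrogenase, was the gene called lower (-0.74, adjusted p = 0.0213), at 131 ± 38.05 in astrocytes and 216 ± 55.6 in non-astrocytes. In the carnitine shuttle 6 of 9 were higher and 1 lower against non-astrocytes, led by Crot, the peroxisomal octanoyltransferase (2.12, adjusted p = 3.76e-09). With values scaled to equal totals 4 were higher. Acacb, whose malonyl-CoA product inhibits Cpt1a, was lower (-0.84, adjusted p = 0.000772). Against bulk tissue 7 were higher, and Cpt1c, the neuronal family member, was lower (-1.61, adjusted p = 4.51e-08).

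Carriers and synthetases did not move as families. Of 11 fatty acid binding genes listed 4 were tested. Besides Fabp5 and Fabp7, Dbi, the acyl-CoA binding protein, was higher in astrocytes (log2 3.11, limma adjusted p = 5.33e-10), and Fabp3, the heart-type carrier, was lower (-1.92, adjusted p = 0.00081). Fabp3 was nearly missing in both sorted fractions, at 8.55 ± 4.97 in astrocytes and 30.6 ± 7.06 in non-astrocytes, and stood at 539 ± 38.8 in bulk tissue. Of 16 synthetase and uptake genes tested 8 were higher and 6 lower against non-astrocytes, and 7 higher and 7 lower against bulk tissue. Slc27a1, a fatty acid transport protein (3.72, adjusted p = 1.37e-11), and Acss2, the cytosolic acetyl-CoA synthetase (3.25, adjusted p = 9.56e-12), accompanied Acsl6 and Acsbg1. Acsl1 (-3.54, adjusted p = 5.67e-13), Acsl5 (-3.20, adjusted p = 1.77e-08) and Acsl4 (-0.98, adjusted p = 1.85e-05) went against them. Acsl1 measured 203 ± 17.3 in astrocytes, 2385 ± 295 in non-astrocytes and 1615 ± 50.3 in bulk tissue, the reverse of the order of fractions seen for Acsl6.

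The regulators were mixed, with 4 of 11 higher and 5 lower against bulk tissue (median log2 -0.42). Against non-astrocytes 6 of 11 were higher and 4 lower. Ppargc1a, a coactivator of mitochondrial gene expression, was 23.3-fold higher (log2 4.54, limma adjusted p = 1.27e-12), with 6987 ± 1860 in astrocytes, 294 ± 50.2 in non-astrocytes and 3482 ± 399 in bulk tissue. Ppara, the nuclear receptor that activates fatty acid oxidation genes, was higher by 9.08-fold (3.18, adjusted p = 7.81e-10), while Ppard (-1.75, adjusted p = 1.61e-06) and Rxra (-1.28, adjusted p = 9.74e-06) were lower. With equal totals the split of this list was 4 higher and 5 lower. Peroxisomal oxidation had 7 of 12 higher and 2 lower, led by Abcd2, a peroxisomal transporter of very long chains (2.82, adjusted p = 1.08e-10). Fatty acid synthesis and desaturation had 11 of 11 higher in astrocytes, in both comparisons (10 of 11 against non-astrocytes with equal totals), led by the elongase Elovl2 with 52.4-fold (5.71, adjusted p = 6.02e-13).

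**Figure D4:**
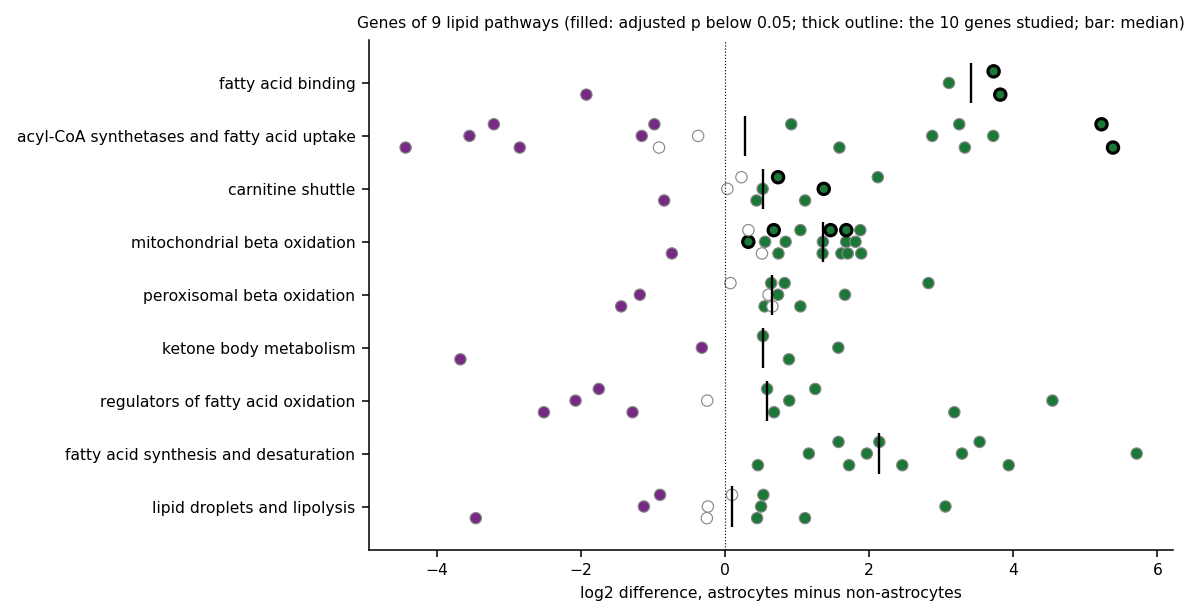
Log2 difference of astrocytes minus non-astrocytes for each tested gene of 9 lipid pathway lists, filled green where called higher and purple where called lower, white where not called, with the 10 genes outlined and a bar at the list's median. Synthesis genes all lie above 0 and mitochondrial oxidation genes lie above 0 except Acads, whereas synthetases spread from -4.43 to 5.38.

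Between the layers, none of the 10 genes passed the test in any fraction. In astrocytes all 10 were above 0 in upper against deep layers (51.4% of all genes were), with log2 differences from 0.12 for Acsl6 to 0.41 for Acsbg1 and Fabp5 and a median of 0.21, against 0.01 for all genes. Called were 0 of 10 by limma at an adjusted p below 0.05, beside 0.0797% of all genes, and 2 of 10 had an unadjusted p below 0.05. edgeR and DESeq2 each gave 0 and 2 as well. The share of all genes at that unadjusted p is not given, so the count of 2 has no background beside it. The 2 genes were Fabp5, at 8009 ± 657 in upper and 6028 ± 89.4 in deep layer astrocytes (SD, n = 3 each; log2 0.41 ± 0.13 SE, limma adjusted p = 0.339), and Acsbg1, at 18290 ± 821 and 13741 ± 972 (0.41 ± 0.16 SE, limma adjusted p = 0.432). For these 2 and for Hadha every upper library lay above every deep library, which held for 8.7% of all genes. Same-numbered libraries of the 2 astrocyte layers varied together, and with the number as a block within fractions the limma adjusted p was 0.101 for Fabp5 and 0.083 for Acsbg1, so no call changed. Marker lists shifted too. All 9 dissociation stress genes were above 0 (median 0.36, 0 called), with sums of 3410 to 3584 in upper and 2586 to 2850.3 in deep layer astrocytes. Of 8 astrocyte markers 6 were above 0 (median 0.17, sums of 1099813 to 1336125 and 1008107 to 1493061), and of 6 oligodendrocyte markers 5 were below 0 (median -1.16, 1 called, sums of 3613 to 4854 and 4765 to 5970). Endothelial markers were above 0 in 5 of 6 (median 0.50), mural cell in 5 of 5 (0.31) and microglial in 5 of 6 (0.17). Meningeal fibroblast markers were above 0 in 4 of 5 (1.19), with sums of 185 to 275.5 in upper and 269 to 338 in deep layers. Neuron markers were above 0 in 4 of 7 (0.41), oligodendrocyte precursor in 2 of 5 (-0.16) and radial glia in 5 of 7 (0.29). No gene of these further lists was called. The part of all these lists in the layer differences was not tested. The difference of Fabp7 (0.19) rested on 1 library, being -0.07 without upper layer astrocyte replicate 3.

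In the other fractions the direction was not shared. Of the 10 genes, 3 were above 0 in upper against deep layer non-astrocytes (5 with equal totals) and 5 in bulk tissue (3 with equal totals), beside 46.3% and 50.3% of all genes, with 0 of 10 called by limma, edgeR or DESeq2 and 0 with an unadjusted p below 0.05. Of all genes 0.00443% and 0.456% were called. The test of whether the layer difference of astrocytes departed from that of non-astrocytes also called 0 of 10 (0.00443% of all genes). With each tool 1 gene had an unadjusted p below 0.05, for which the share of all genes is not given either. That gene was Fabp5, with an interaction of 0.52 (95% confidence interval 0.10 to 0.95, limma adjusted p = 0.775). The same test against bulk tissue called 0 of 10 (0.137% of all genes), and 0 had an unadjusted p below 0.05. The widest interval for a layer difference in astrocytes was that of Fabp7, from -0.35 to 0.72. The interval that reached furthest was that of Acadl, from -0.13 to 0.80, so a change of up to 1.74-fold lies within it at this number of libraries. Among the pathway lists the one gene called between layers was Esrrg, a nuclear receptor of the regulator list, lower in upper layer bulk tissue (-1.70, limma adjusted p = 0.0496, and 0.0782 with equal totals).

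**Figure D5:**
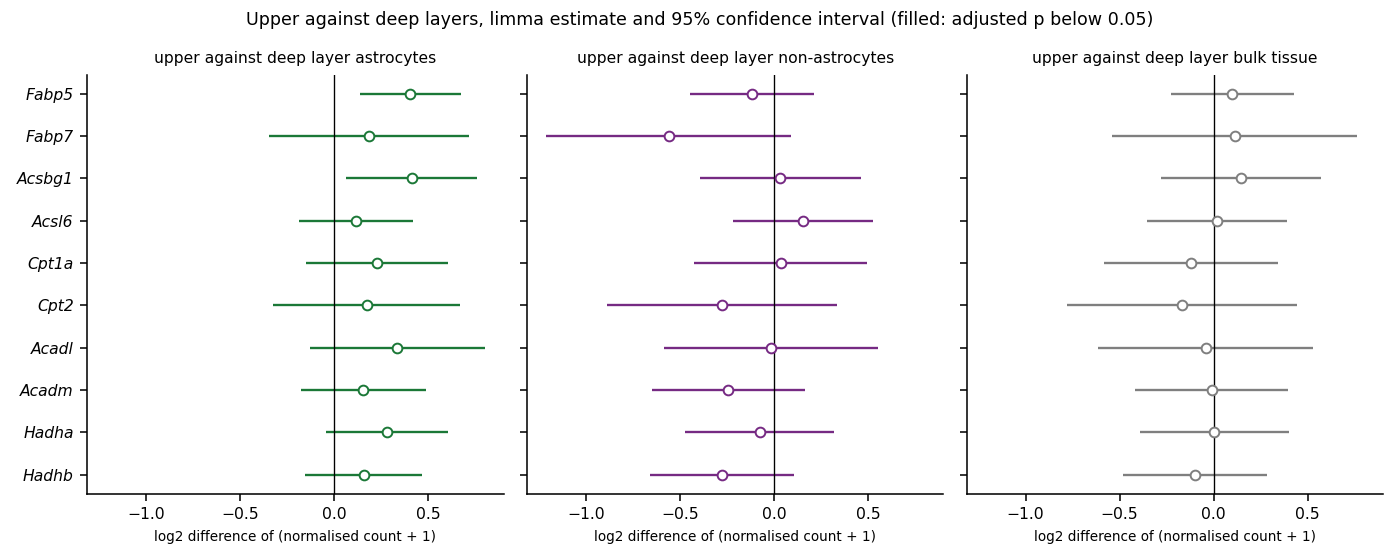
Log2 difference of upper minus deep layers for each gene in astrocytes, non-astrocytes and bulk tissue, with 95% confidence intervals, open because no adjusted p is below 0.05. Astrocyte estimates all lie above 0, up to 0.41, whereas those of the other fractions fall on both sides, from -0.56 to 0.15.

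The genes whose levels were most like each of the 10 over all 14 libraries were listed as a description, since the 3 fractions dominate every such correlation. Acsbg1 was closest to Mlc1 (Pearson r = 0.998, n = 14), a membrane protein of astrocyte endfeet, and Acsl6 to Slc1a2 (0.998), the main astrocyte glutamate transporter. Fabp5 was closest to Fgfr3 (0.996) and Slc1a3 (0.996) and Fabp7 to Vcam1 (0.995) and the elongase Elovl5 (0.992). The oxidation genes had other neighbours. Cpt1a was closest to Npc1, the lysosomal cholesterol transporter (0.994), and to Mfsd2a, the lysophospholipid transporter of the blood-brain barrier (0.992), and Npc1 was also among the nearest 3 of Hadha (0.989). Hadhb was closest to Msmo1, a sterol synthesis enzyme (0.993), Acadl to Serpine2 (0.991), Acadm to Nde1 (0.991) and Cpt2 to Emc3 (0.989). Among the 10 themselves, Acsbg1 and Acsl6 were the closest pair at 0.994, and Cpt1a and Hadha followed at 0.980.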

How the data were processed

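RNA-seq of 14 libraries was deposited as 1 table of gene signal values, which are read counts the authors divided by 1 size factor per library. The notes on processing by the submitters give the build as GRCm38 and name TopHat2 2.0.11 and HTSeq 0.6.1p1 beside DESeq2 and CASAVA, without their roles. The strand setting and the handling of reads with several matches are not given in the sources used here. Per the labels' protocols, cDNA was amplified with a NuGEN kit and read in single 50-base reads. Division by the smallest step of each library returned whole reads for 100% of values (tolerance 1e-06).

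Normalised values were tested with limma 3.58.1 (R 4.3.3, trend and robust) on log2(value + 1), in 1 model of 6 group means with 8 residual degrees of freedom, over the 22575 of 32830 genes with a value of at least 10 in at least 2 libraries. A fold change is on that scale. Fraction comparisons average both layers. Differences were called at a Benjamini-Hochberg adjusted p below 0.05. The scripts were tested on simulated data. edgeR 4.0.16 and DESeq2 1.42.0 were run on the recovered reads. Other alternatives were equal totals, pseudocounts of 0.5 and 5, no filter, a mean of at least 50, no trend or robust moderation, only the compared groups, the replicate number as a block, and leaving out each library. Exon union length was added after the data were seen.

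Same-numbered deep and upper layer libraries of a fraction deviated from their group means together. Over 15797 genes the correlations were 0.28, 0.20 and 0.30 in astrocytes, 0.65 in non-astrocytes and 0.18 in bulk tissue. In non-astrocytes and bulk tissue both replicate numbers give the same value, because deviations within such a group mirror each other. The numbers were therefore taken to pair the libraries across layers. The main limma model took every library as separate, so its p-values for the fraction comparisons may be too small.

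Of the gene IDs, 32007 matched GENCODE M21. The 10 genes and all lists were chosen with earlier results of these data known. From each pathway list, the genes named were called genes with the smallest p, up to 4 per direction in each of the first 2 comparisons, and every gene called between layers. Genes that resembled a member were the 3 with the highest correlation, passing over predicted genes and pseudogenes. Some genes of these lists are not reported here.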

Additional observations from a re-analysis of the deposited data

Results flagged for a closer look

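Among the 4 bulk libraries, Acsbg1 was highest in upper layer replicate 1, at 3789.6 normalised reads, while the other 3 lay between 3074 and 3151. The gap to its nearest neighbour was large for a group of 4. Of 30 sets of libraries checked this was the only end that stood out, and chance gives about 1 in 20 groups.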

How the results depend on the processing

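Of the fraction comparisons, all 10 calls of astrocytes against bulk tissue held in every alternative run, and for astrocytes against non-astrocytes all but that of Hadha. Against bulk tissue the non-astrocyte calls of Cpt2 and Fabp7 were lost in several. For Cpt2 the adjusted p was 0.0532 with no filter, 0.0644 without trend and robust moderation, and 0.0589 with only the compared groups. For Fabp7 it was 0.0768 without trend and robust moderation. For Hadha in astrocytes against non-astrocytes it was 0.0521 without that moderation and 0.051 with only the compared groups. The replicate block changed no call of the 10 genes (for Hadha in astrocytes against non-astrocytes the log2 difference was 0.28, adjusted p = 0.0425).

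Signs of layer differences that were never called changed. With equal totals, upper against deep layers gave 0.085 (Acadl) and 0.025 (Hadha) in non-astrocytes and -0.0056 (Acsl6) and -0.021 (Hadha) in bulk tissue. Leaving out 1 library at a time, upper against deep layers in non-astrocytes ranged from -0.28 to 0.25 (Acadl), -0.26 to 0.33 (Acsbg1), -0.23 to 0.30 (Cpt1a), -0.62 to 0.074 (Cpt2) and -0.33 to 0.18 (Hadha). In bulk tissue it ranged from -0.33 to 0.24 (Acadl), -0.22 to 0.20 (Acadm), -0.10 to 0.14 (Acsl6), -0.43 to 0.096 (Cpt2), -0.094 to 0.32 (Fabp7) and -0.033 to 0.040 (Hadha), and in astrocytes from -0.068 to 0.36 (Fabp7). The layer difference of astrocytes against that of bulk tissue ranged from -0.048 to 0.38 (Acadm), -0.023 to 0.22 (Acsl6) and -0.18 to 0.28 (Fabp7), and against that of non-astrocytes from -0.14 to 0.073 (Acsl6) and -0.071 to 0.45 (Cpt1a). The cause was not tested.

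Counts over all genes moved in the layer comparisons: 18 genes in astrocytes with limma became 142 with DESeq2, 4 without trend and robust moderation, 1 with only the compared groups, 89 with the replicate block and 188 with the block within fractions, and 103 in bulk tissue became 428, 1093 with only the compared groups and 261 with the block within fractions. With equal totals the called genes were 5183 higher and 9252 lower in astrocytes against non-astrocytes (6677 and 8301 before), and 9019 and 5054 in non-astrocytes against bulk tissue (6885 and 7030). Lane and animal were not given, and with 2 or 3 libraries per group and layer small layer differences cannot be resolved.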

Other observations

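The ketone body and lipid droplet genes were mixed in direction. Of 5 ketone body genes, 3 were higher and 2 lower in astrocytes than in non-astrocytes (limma, Benjamini-Hochberg). Bdh1, which interconverts the ketone bodies, was higher (1.57, adjusted p = 9.46e-08).

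Of 11 lipid droplet and lipolysis genes, 5 were higher and 3 lower (2 and 4 with values scaled to equal totals, where Abhd5 and Plin3 lost their calls). Plin2, a coat protein of lipid droplets, stood at 271 ± 24.9 in astrocytes, 604 ± 153 in non-astrocytes and 52.5 ± 17.3 in bulk tissue, so both sorted fractions lay above bulk tissue. The summed level of 9 dissociation stress genes was 2586 to 3584 in astrocytes, 29751 to 52351 in non-astrocytes and 19195 to 31999 in bulk tissue. Its part in the level of Plin2 was not tested. Dgat2, which makes triglycerides, was 11-fold lower in astrocytes than in non-astrocytes (-3.46, adjusted p = 1.09e-07).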
